A study of Mus musculus with 5 samples.

Results

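The carbonic anhydrases of the fetal mouse colon were followed through every array probe set annotated to Car1, Car2, Car3, Car4, Car6, Car8, Car9, Car12, Car13 or Car14 and to no other gene, which gave 14 of the 22626 probe sets tested and 10 of 12393 genes. Transcripts were measured in the colons of 5 embryos at E18.5, with 1 array per embryo. The 3 HNF4 null embryos (null_59, null_60 and null_426) had the genotype HNF4LoxP/LoxP FoxA3Cre. The 2 control embryos (CONTROL_406 and CONTROL_421) were HNF4LoxP/+ FoxA3Cre, so every array came from an embryo with the Cre transgene and at least 1 floxed allele, and a colon without either was not analysed here. Foxa3, after which the transgene is named, encodes a transcription factor of endodermal tissues, and the labels do not say in which cells recombination took place, whether the embryos were littermates, or which HNF4 gene was floxed.

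Carbonic anhydrases are zinc enzymes that interconvert carbon dioxide and bicarbonate and release a proton. In the colon they supply bicarbonate and protons to the exchangers of the absorptive cell surface, through which sodium and chloride are taken up and bicarbonate is secreted. The family holds cytosolic enzymes, enzymes anchored in the plasma membrane, a secreted one, mitochondrial ones, and related proteins that have lost the catalytic zinc site.

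No carbonic anhydrase passed the threshold between HNF4 null and control colons. Of the 14 probe sets, 0 had an adjusted p under 0.05 by limma, where 0.124% of all probe sets did. At an unadjusted p under 0.05 there were 2 of 14 (14.3%), Car8 by its brighter probe set and Car1, against 7.15% of all probe sets. Both were lower in null colons, where 4.33% of all probe sets were lower and 2.82% higher at that level. The median difference over the 14 was 0.0043 on the log2 scale, beside 0.016 over all probe sets, and 7 of the 14 lay below 0. The arrays of the groups did not overlap for 3 probe sets that were lower in null (Car1, Car2 and Car8) and 2 that were higher (Car6 and the other probe set of Car8), or 35.7% against 23.7% of all probe sets (11.6% lower and 12% higher). In bulk tissue, fewer cells of a type and less RNA per cell cannot be told apart.

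**Figure D1:**
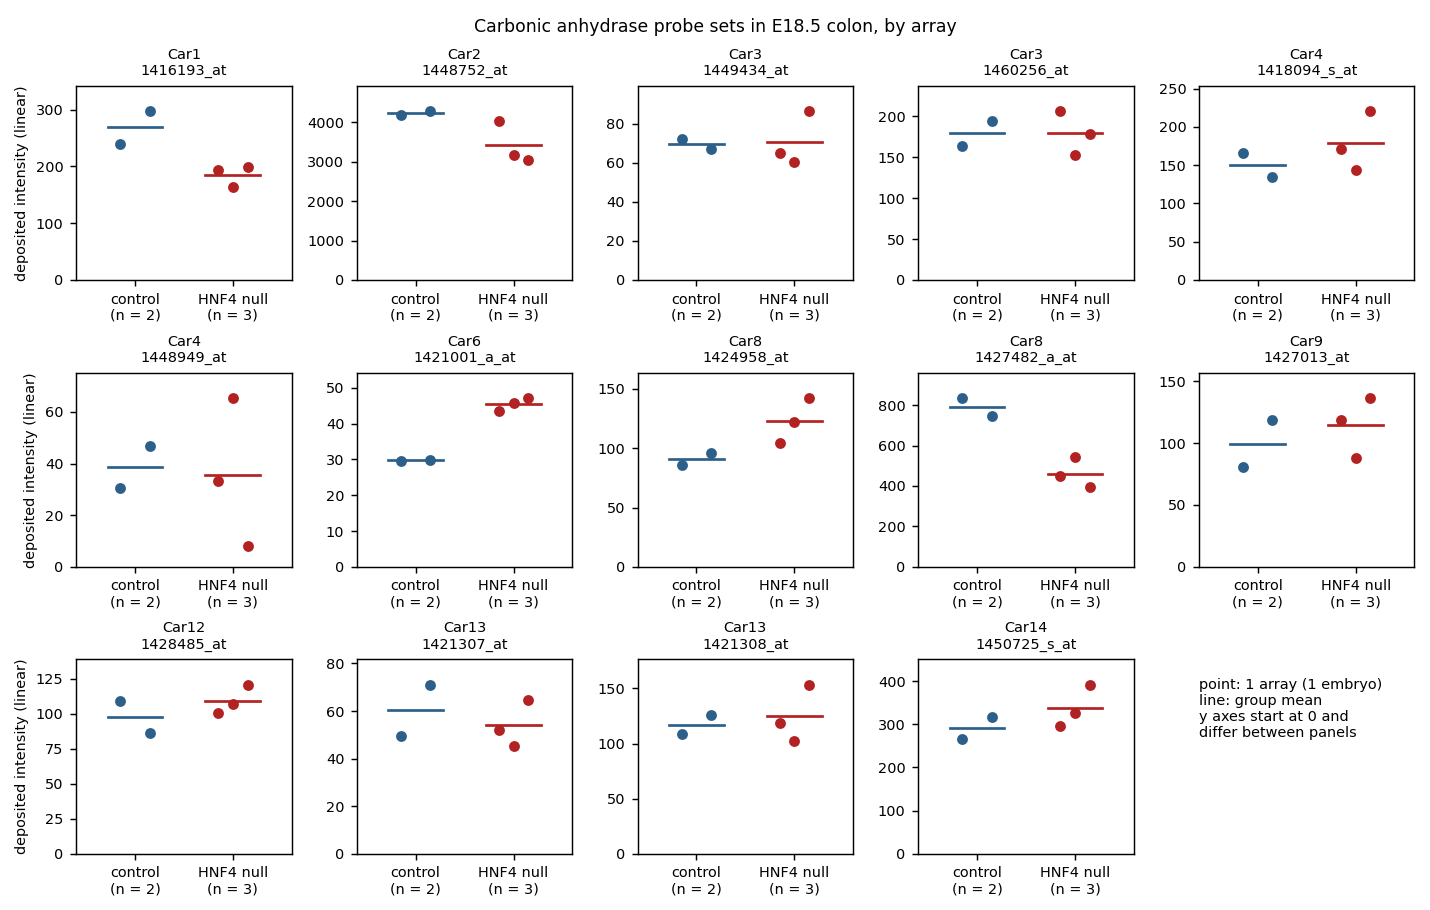
Deposited intensity on a linear axis from 0 for each of the 14 carbonic anhydrase probe sets, with a point per array and a line at the mean of the 2 control and the 3 HNF4 null arrays. The null points lie below both controls for Car1, Car2 and Car8 1427482_a_at and above both for Car6 and Car8 1424958_at, and the groups overlap in the other 9 panels.

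Several facts of the series bear on these values. The median deposited intensity of an array lay between 123.7 and 135.2, and pairs of arrays correlated at 0.946 to 0.974 across probe sets. The 3' to 5' ratio of the Gapdh control probe sets was 1.47 in CONTROL_421 and 0.767 to 0.895 on the other arrays. Hnf4a, the gene of HNF4 alpha, was read by 4 probe sets and none passed. The brightest, 1427001_s_at, read 650, 746 and 723 in the 3 null and 945 and 991 in the control colons (adjusted p = 0.719). Another, 1427000_at, read 344, 348 and 358 against 640 and 442. Its log2 difference was -0.55 (unadjusted p = 0.0153 by limma, adjusted p = 0.603). For both of these probe sets every null array was below both controls. The other 2 differed by 0.14 and 0.19 on the log2 scale with overlap. Where the floxed stretch lies is not given in the sources used here, so whether any of these probe sets can report the deletion is unknown. Of 12 markers of epithelium and 10 of smooth muscle, 0 were below the array median on every array, so RNA of both layers was read.

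The RefSeq promoter table (GRCm38.p6) held 5 of the 10 genes, Car4, Car6, Car9, Car12 and Car14, and the 250 bases before their start sites were searched on both strands. An HNF4-type site, CAAAGTCC (GGACTTTG on the other strand), was in the window of Car9 and in none of the other four, against 1.20% of the 32851 windows of all genes. A longer direct-repeat type, CAAAGGTCA, was in none of the 5, against 0.426% of all windows. The hypoxia-response letters ACGTG were in 3 of the 5 (Car6, Car9 and Car14), against 16.6% of all windows. The windows of Car9 and Car6 are shown because Car9 has both kinds of letters and Car6 was the member higher on every null array by its one probe set. Matched letters are in capitals and the windows read 5′ to 3′ on the gene's strand.
Car9 (chr4:43506776-43507025, GRCm38.p6, plus strand): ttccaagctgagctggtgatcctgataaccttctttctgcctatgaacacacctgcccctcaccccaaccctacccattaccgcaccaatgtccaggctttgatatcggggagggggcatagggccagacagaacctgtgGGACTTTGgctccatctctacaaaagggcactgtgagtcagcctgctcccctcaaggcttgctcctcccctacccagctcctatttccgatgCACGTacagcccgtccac
Car6 (chr4:150201136-150201385, GRCm38.p6, minus strand): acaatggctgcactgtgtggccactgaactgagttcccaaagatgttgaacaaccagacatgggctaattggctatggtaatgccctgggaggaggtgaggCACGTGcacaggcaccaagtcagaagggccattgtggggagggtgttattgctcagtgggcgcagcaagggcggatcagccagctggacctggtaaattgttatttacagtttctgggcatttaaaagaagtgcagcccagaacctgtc
In Car9 the HNF4-type letters began 110 bases before the start and the ACGTG letters (here as CACGT) 18 bases before it. In Car6 the palindrome CACGTG gave 2 overlapping matches at 149 and 148 bases. A match describes letters in these windows and was not tested as a binding site.

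Among the cytosolic enzymes, Car1, an enzyme abundant in red cells and in colonic epithelium, had intensities of 193, 163 and 199.7 on null_59, null_60 and null_426. The controls CONTROL_406 and CONTROL_421 read 239.7 and 298. Every null array was lower than both controls, with the gap smallest between null_426 and CONTROL_406. The group means were 185 ± 19.4 (SD, n = 3) and 269 ± 40.9 (SD, n = 2). The difference was -0.50 ± 0.18 on the log2 scale (SE, unadjusted p = 0.0225, adjusted p = 0.642), a level 1.42-fold higher in control with a 95% interval of 1.06 to 1.88. Without CONTROL_421 it was -0.32 (unadjusted p = 0.180), and without null_60 it was -0.41 (unadjusted p = 0.0656).

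Car2, the fast cytosolic enzyme of many acid- and bicarbonate-transporting epithelia, read 4043, 3162 and 3035 in null_59, null_60 and null_426 against 4195 and 4286 in the controls. The groups did not overlap, although null_59 came close to CONTROL_406. The group means were 3413 ± 549 (SD, n = 3) and 4240.2 ± 64.5 (SD, n = 2). The difference was -0.32 ± 0.18 (SE, adjusted p = 0.760), and the 95% interval, from -0.73 to 0.09, held 0. Array weights moved it to -0.17, the smallest value of all alternatives. The unadjusted p of Car2 by limma was 0.109, against 0.0403 with a plain intensity trend and 0.0324 with a robust one. No other alternative brought it under 0.05.

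The other cytosolic enzymes showed no side. Car3, a slow enzyme of muscle and fat, read 206, 153 and 179 in null and 163 and 195 in control colons by its brighter probe set 1460256_at, and the control arrays lay within the null range. Its difference was -0.02 ± 0.19 (SE, 95% interval -0.44 to 0.41). The dimmer probe set 1449434_at ran from 60.6 to 86.5 in null with the controls at 72.2 and 66.9 inside that range (-0.07 ± 0.17, SE). Car13, a cytosolic enzyme found in several organs including the gut, read 118, 102 and 153 in null and 108 and 126 in control colons by 1421308_at (0.03 ± 0.20, SE). By 1421307_at it read 51.8, 45.1 and 64.8 against 49.6 and 71.0, again with overlap (-0.20 ± 0.20, SE).

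Car13, Car1, Car3 and Car2 stand next to each other on mouse chromosome 3 in the RefSeq table, with 2 pseudogenes and 1 long noncoding RNA gene among them and no other protein-coding gene. Their differences by the brightest probe set, in that order, were 0.03, -0.50, -0.02 and -0.32 on the log2 scale. The genes at the lower end of that range, Car1 and Car2, are not direct neighbours, since Car3 lies between them. Whether the 4 differences differ from one another was not tested.

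Car8 is a cytosolic relative without catalytic activity, known for binding the inositol trisphosphate receptor and for its high level in Purkinje cells. By the brighter probe set 1427482_a_at it read 447, 545 and 393 on null_59, null_60 and null_426, against 835 and 747 on the control arrays. All null arrays were well below both controls, at 461 ± 77.0 (SD, n = 3) against 791 ± 62.5 (SD, n = 2). This was the member with the smallest p, at -0.70 ± 0.17 on the log2 scale (SE, unadjusted p = 0.00271, adjusted p = 0.372), or 1.62-fold higher in control (95% interval 1.24 to 2.12). Its difference lay between -0.81 and -0.63 in all 13 alternatives, and its adjusted p between 0.178 and 0.826.

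The dimmer Car8 probe set, 1424958_at, ran the other way. It read 105, 122 and 142 in null and 85.6 and 96.1 in control colons, with all null arrays above both controls, a difference of 0.32 ± 0.18 (SE, adjusted p = 0.759). The log2 ratio of the brighter to the dimmer probe set within an array was 1.96, 1.98 and 1.47 in null_59, null_60 and null_426 and 2.98 and 2.67 in the controls. The groups did not overlap, and the mean ratio differed by -1.02. The opposite sides of its probe sets already fix this, so the ratio is a description and is not read as a test. Which transcript each one reads is not given in the sources used here.

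Among the other pairs, the ratio differed by 0.22 for Car13, with no overlap between groups. The exact two-sided permutation test over the 10 splits gave p = 0.1, the smallest that 3 against 2 arrays can give. Adjustment over the 4 genes with a pair of probe sets gave 0.2. That value counts the Car8 ratio, whose outcome was already fixed, so it says nothing further about Car13. The ratio differed by 0.49 for Car4 (exact permutation p = 0.8) and by 0.05 for Car3 (exact permutation p = 1), both with overlap. The Car4 ratio ranged from 0.96 to 3.36 among the null arrays alone, and it was highest in null_426, where the dimmer probe set read 7.88.

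**Figure D2:**
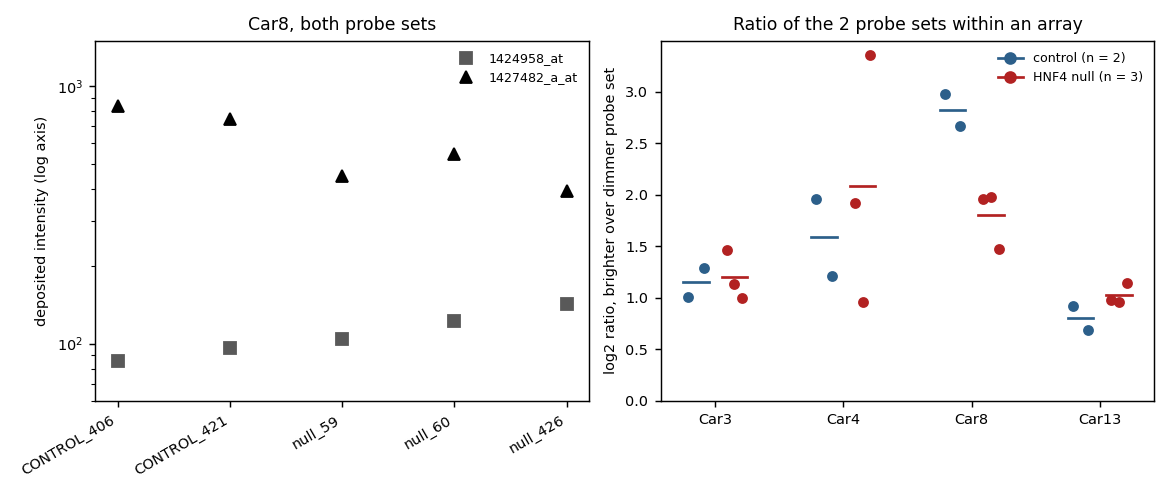
Left, deposited intensity on a log axis of the 2 Car8 probe sets on each array. Right, the log2 ratio of the brighter to the dimmer probe set on each array (points) with group means (lines) for the 4 genes with a pair of probe sets. For Car8 the null arrays lie between 1.47 and 1.98 and the controls at 2.67 and 2.98, while the Car3 and Car4 groups overlap.

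Of the membrane enzymes, Car4, which is held by a lipid anchor on the apical surface of colonocytes, read 171, 144 and 221 in null and 165 and 135.1 in control colons by its brighter probe set 1418094_s_at. The groups overlapped, with null_426 the highest and CONTROL_421 the lowest array. The difference was 0.19 ± 0.20 (SE, adjusted p = 0.848) and its 95% interval ran from -0.26 to 0.65. The dimmer probe set 1448949_at read between 7.88 and 65.4 in null and 30.6 and 46.7 in control colons. Its interval, from -1.28 to 0.68, was the widest of all members.

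Car9 and Car12 are transmembrane enzymes with an extracellular active site, and both are known targets of hypoxia signalling. For Car9 the intensities were 119, 88.1 and 136 in null and 80.7 and 119 in control colons, with null_59 level with the higher control and null_426 above it (0.13 ± 0.22, SE, 95% interval -0.37 to 0.63). For Car12 they were 100.4, 107 and 121 in null and 109 and 86.3 in control colons, also with overlap (0.09 ± 0.17, SE, 95% interval -0.28 to 0.46). Car14, a transmembrane enzyme known from kidney and brain, read 296, 327 and 392 in null and 265 and 318 in control colons. Here null_59 lay between the controls and the other two null arrays above them (0.22 ± 0.19, SE, adjusted p = 0.822).

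Car6, the secreted enzyme of saliva, was dim, below the array median on every array. It read 43.5, 45.8 and 47.2 in null and 29.6 and 29.9 in control colons, so the groups stood apart with little spread within either. On the log2 scale the difference was 0.33 ± 0.16 (SE, unadjusted p = 0.0648, adjusted p = 0.719). Its size moved with the pseudocount and was 0.47 with a pseudocount of 1 and 0.17 with one of 64. The unadjusted p of Car6 by limma was under 0.05 as deposited (0.0278), with median centring (0.0409), with a pseudocount of 1 (0.0296) and with array weights (0.0482). No other alternative brought it under 0.05.

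**Figure D3:**
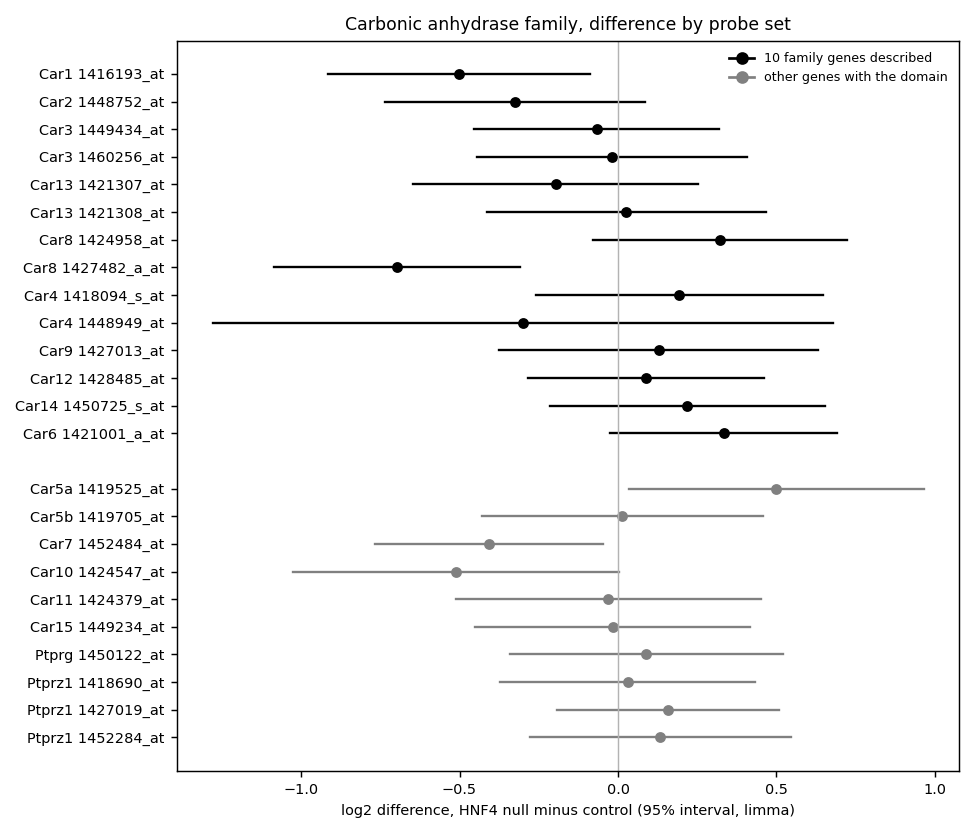
Log2 difference, HNF4 null minus control, with its 95% interval from limma (n = 3 and 2 arrays) for the 14 carbonic anhydrase probe sets (black) and for 10 probe sets of 8 other genes with the domain (grey). Among the black intervals, 12 of 14 include 0, and those of Car1 and Car8 1427482_a_at lie below it.

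The precision differed little between most members. The half-width of the 95% interval ran from 0.36 to 0.98 on the log2 scale, and for 12 of the 14 probe sets the whole interval lay within 1 on either side of 0, that is, within a 2-fold difference. The exceptions were Car8 1427482_a_at (-1.09 to -0.31) and the dim Car4 probe set. Of the 14, 5 lay below the array median on all arrays, 6 above it on all arrays and 3 on both sides of it.

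The other 8 genes with a carbonic anhydrase domain were read by 10 probe sets, of which 8 lay below the array median on every array, and 0 passed (0.124% of all probe sets did). At an unadjusted p under 0.05 there were 2 of 10, 1 in each direction, against 4.33% of all probe sets lower and 2.82% higher. Car5a, a mitochondrial enzyme, read 83.5, 61.9 and 93.8 in null and 40.4 and 56.1 in control colons, with no overlap (0.50 ± 0.21, SE, adjusted p = 0.688). It was 0.27 without CONTROL_406 (unadjusted p = 0.297) and 0.72 without CONTROL_421, and its unadjusted p was 0.103 without null_59, 0.0994 without null_426 and 0.0554 with a pseudocount of 64. The other mitochondrial gene, Car5b, read 98.0, 89.2 and 141 in null and 109 and 95.9 in control colons, with overlap (0.01 ± 0.20, SE). Car7, a cytosolic enzyme of brain, read 21.5, 27.3 and 23.8 against 37.3 and 30.6, lower on every null array (-0.41 ± 0.16, SE, adjusted p = 0.655). Its size moved with the pseudocount, from -0.61 with 1 to -0.20 with 64 (unadjusted p = 0.0980). It was -0.38 without CONTROL_406 and -0.43 without CONTROL_421. Its unadjusted p was also above 0.05 without null_59 (0.0989), without null_426 (0.0672), as deposited (0.102), with median centring (0.0570) and with a robust trend (0.0517).

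Among the remaining ones, Car10 and 1 probe set of Ptprz1 had groups that did not overlap. With Car5a and Car7 that made 4 of the 10 probe sets (40%), 2 lower and 2 higher. Over all probe sets the share was 23.7% (11.6% lower and 12% higher). Car10, a relative without catalytic activity, read from -2.23 to 9.49 in null and 9.74 and 15.3 in control colons, which is too near 0 to set a level. Its acatalytic relative Car11 and the membrane-anchored Car15 differed by -0.03 and -0.02 on the log2 scale, with overlapping groups. The receptor phosphatase genes Ptprg and Ptprz1, whose extracellular parts resemble carbonic anhydrases, differed by 0.09 and, over 3 probe sets of Ptprz1, by 0.03 to 0.16. The Ptprz1 probe set 1427019_at read 67.7, 66.6 and 75.7 in null and 61.0 and 53.0 in control colons, higher on every null array (0.16 ± 0.16, SE, adjusted p = 0.839).

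Genes of bicarbonate transport, of proton and sodium transport and of short-chain fatty acid transport were taken as lists, each gene by its brightest probe set. The lists also hold sodium channels, sodium pump subunits and scaffold proteins, and use of bicarbonate or protons from carbonic anhydrases was not tested. Of 16 measured bicarbonate transporter genes 0 passed, 2 were lower and 0 higher at an unadjusted p under 0.05 (4.33% and 2.82% of all probe sets), and the median difference was 0.02. Slc26a2, a sulfate and anion exchanger, read 201, 228 and 96.2 in null and 703 and 845 in control colons, with no overlap. Its difference was -2.12 ± 0.32 (SE, adjusted p = 0.0567), and it was -0.81 ± 0.21 by its dimmer probe set. Its adjusted p crossed the threshold in 6 of 13 alternatives, among them the table as deposited (0.0280).

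Best2, a bicarbonate-permeable anion channel of goblet cells, differed by -0.91 ± 0.19 (SE, adjusted p = 0.236). The chloride-bicarbonate exchanger gene Slc26a3 differed by -0.35 with overlap, and Slc26a8, an anion exchanger known from testis, by 0.29. Of 13 proton and sodium transporter genes, 1 fell (0.124% of all probe sets passed), Atp12a of the colonic proton-potassium pump. It read 248, 184 and 78.4 in null and 1447 and 1171 in control colons, 7.61-fold higher in control (95% interval 4.18 to 13.8, adjusted p = 0.0271). It lost the call without null_60 (adjusted p = 0.146), without CONTROL_406 (0.0657), without CONTROL_421 (0.0917), with a pseudocount of 1 (0.221) and with a robust trend (0.119).

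In the same list, Atp1b1 of the sodium pump differed by -0.44, Slc9a3r1, a scaffold of the sodium-proton exchanger, by -0.47 and the exchanger gene Slc9a8 by -0.41 (adjusted p = 0.686, 0.687 and 0.702), and the list's median was -0.05. The 5 probe sets of Atp1b1 ran from -1.01 (unadjusted p = 0.00205) to 0.02. Those between lay at -0.56, -0.47 and -0.44 (unadjusted p = 0.0445, 0.0265 and 0.0376 by limma). By its other probe sets Slc9a3r1 differed by -0.52 and -0.54 (unadjusted p = 0.0340 and 0.0306). Of 5 transporter genes for short-chain fatty acids 0 passed, with 1 lower at an unadjusted p under 0.05 (4.33% of all probe sets) and a median of -0.36. These were Slc5a8, a sodium-coupled carrier, at -0.64, Slc16a1 at -0.40, its partner protein gene Bsg at -0.25, Slc16a3 at 0.36, and Slc16a7, outside the naming rule, at -0.36. Of 18 other hypoxia target genes, a class that also includes Car9 and Car12, 0 passed and 0 had an unadjusted p under 0.05, with a median of 0.02. Ndrg1 (0.31), Higd1a (-0.34), Slc2a1 (0.33) and Aldoc (0.32) had the smallest p of this list, and none was past the threshold. The other 4 probe sets of Ndrg1, a hypoxia- and stress-induced gene, differed by 0.57 to 0.89. Each was higher at an unadjusted p under 0.05 (adjusted p = 0.591 to 0.695). The count of 0 therefore rests on reading each gene by its brightest probe set. On all 4 of these probe sets CONTROL_421 was the lowest array. The probe set at 0.89 read 521, 434 and 401 in null and 374 and 149 in control colons. The groups overlapped for the one at 0.74, and in deposited intensity also for the one at 0.69. They did not overlap for those at 0.57 and 0.89.

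**Figure D4:**
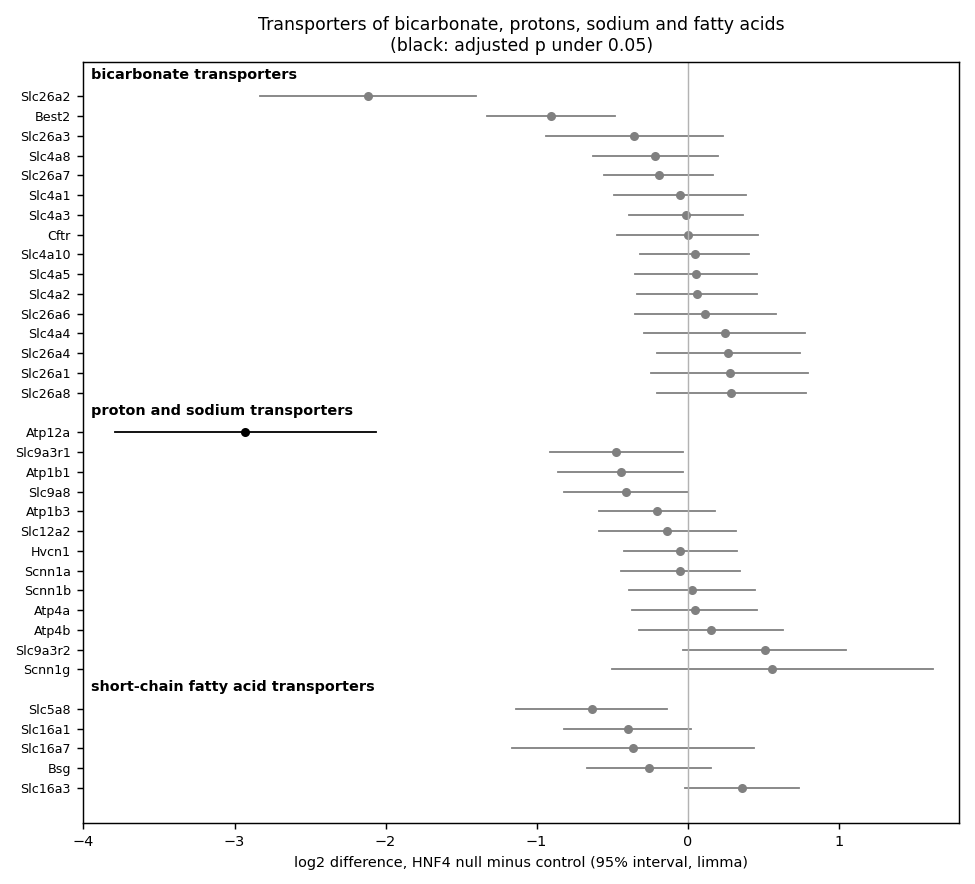
Log2 difference, HNF4 null minus control, with its 95% interval from limma for each measured gene of 3 transporter lists by its brightest probe set (n = 3 and 2 arrays). Atp12a (-2.93) is the single gene past the threshold, and Slc26a2 (-2.12) stands nearest to it.

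Markers of the cells that hold carbonic anhydrases moved as follows. In the epithelium list 0 of 12 genes passed and 4 were lower and 0 higher at an unadjusted p under 0.05 (4.33% and 2.82% of all probe sets), with a median of -0.12. The 4 were Epcam (-0.66), Vil1 (-0.74), Cdh17 (-0.86) and Spint1 (-0.68), and no more than 7 of the 12 genes lay below 0. The summed intensity of the list was 14080 to 18558 on null and 18187 to 19357 on control arrays, lowest on null_426. In the differentiated colonocyte list 3 of 10 genes fell (Aqp8, Cdhr5 and Muc3), where 0.124% of all probe sets passed, the fourth by p being Plac8 (-1.33), and the median was -0.79. Aqp8 passed in all 13 alternatives. Cdhr5 lost the call in 3 of them, without null_60 (adjusted p = 0.0674), without CONTROL_421 (0.0545) and with a pseudocount of 1 (0.0894). Muc3 lost it in 6, without null_60 (0.209), null_426 (0.185) or CONTROL_421 (0.251), with pseudocounts of 1 (0.222) and 64 (0.0651), and with array weights (0.0777). The summed intensity of the differentiated colonocyte list was 8207 to 9484 on null and 10243 to 12216 on control arrays, without overlap. The part of these shifts in the lower readings of Car1, Car2 and Car8 was not tested.

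Erythroid genes are of interest because red cells hold Car1 and Car2. Of 14 genes 0 passed, 0 had an unadjusted p under 0.05 and 3 lay below 0, with a median of 0.10 and summed intensities of 3540 to 3950 on null and 3537 to 3648 on control arrays. Hemgn (0.38), Rhag (0.21), Hbb-y (0.33) and Hbb-bh1 (0.18) had the smallest p, and 7 of the 14 were below the array median on every array. The muscle and fat lists, of interest for Car3, had medians of -9.8e-05 over 12 genes and 0.07 over 8, with 0 genes past the threshold and 0 at an unadjusted p under 0.05. Their summed intensities were 1403 to 1578 and 1119 to 1262 on null and 1382 to 1555 and 1084 to 1100.5 on control arrays.

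The remaining marker lists were smooth muscle (median 0.12 over 10 genes), endothelium (0.06 over 11), enteric neurons and glia (0.10 over 11), stomach (0.05 over 11) and reference genes (-0.01 over 9). In each of these 0 genes passed, and 2 smooth muscle genes were higher at an unadjusted p under 0.05 (2.82% of all probe sets). For both of these genes CONTROL_421 was the lowest array. In no list did a measured gene read 0 or less on all arrays.

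The member gene that varied most over the 5 arrays was Car8, with an SD of 0.40 on the log2 scale by its brightest probe set, against 0.11 for Car12, which varied least. The 5 genes with the nearest pattern, by root mean square distance of centred log2 values over the 5 arrays, were Oat (0.052), Tesk1 (0.055), Golim4 (0.056), Cmpk2 (0.060) and Degs2 (0.065). Oat, which encodes ornithine aminotransferase, read 807, 932 and 669 in null and 1477 and 1207 in control colons, with null_426 lowest as in Car8. Their differences lay between -0.67 and -0.59, with adjusted p from 0.432 to 0.531, and since they were picked for this likeness these are descriptions.

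**Figure D5:**
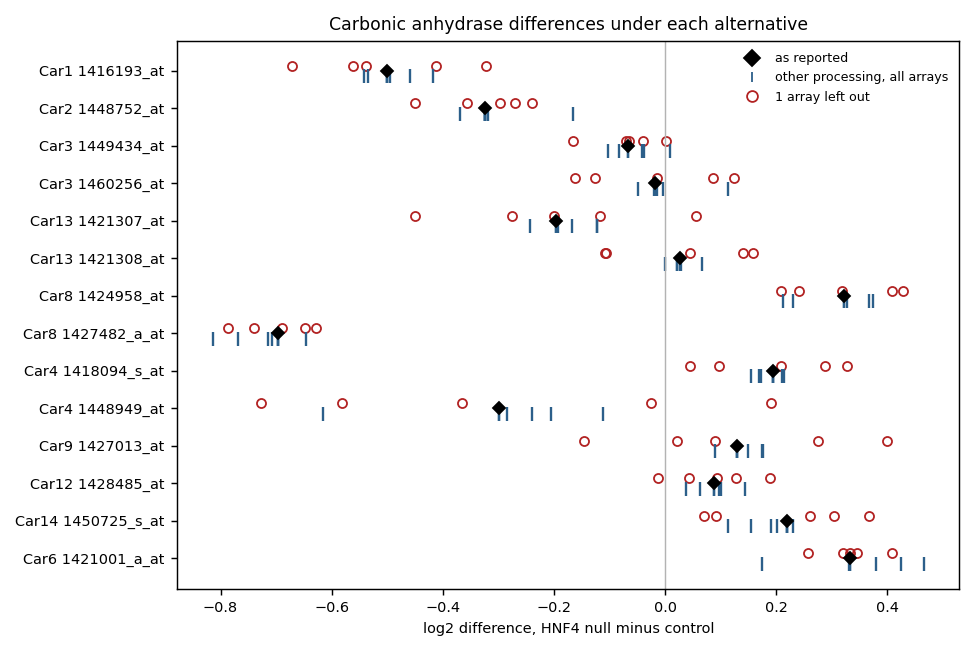
Log2 difference, HNF4 null minus control, of each carbonic anhydrase probe set as reported (diamond), under other processing of all arrays (blue ticks) and with 1 array left out (open red circles). Car8 1427482_a_at stays between -0.81 and -0.63, and Car3, Car9, Car12, Car13 and the dim Car4 probe set have values on both sides of 0.

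Car1, Car2 and Car8 1427482_a_at were lower in null in all 13 alternatives, and Car6, Car14, Car4 1418094_s_at and Car8 1424958_at higher in every alternative that kept them. For Car1, Car2, Car6 and the Car8 probe sets the groups did not overlap. Leaving out 1 array could therefore hardly reverse their sign. In none of the 13 did a carbonic anhydrase probe set have an adjusted p under 0.05.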

How the data were processed

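Colon RNA was purified on silica columns and hybridised as biotin-labelled target, 1 array per embryo, per the labels' protocols. The authors deposited 1 linear intensity per probe set and array. The summarising software, scaling and background step are not given in the sources used here, and some values lie below 0. Of 22690 probe sets, 64 controls were left out. By the platform annotation, 20380 had a single symbol, 691 had several, and 1555 stayed unnamed here. The gene IDs of all 14 carbonic anhydrase probe sets matched RefSeq genes.

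Values below 0 were set to 0, taken as log2(intensity + 16) and quantile normalised. Differences are on that scale and understate changes of dim genes, while printed intensities are as deposited. Groups were compared with the two-sided moderated test of limma 3.58.1 (functions lmFit and eBayes, run in R 4.3.3), adjusted by Benjamini and Hochberg over 22626 probe sets, threshold 0.05. Nothing in the labels beyond embryo numbers says how samples were taken, and p-values measure spread between these 5 arrays, whose number limits the precision. The code was tested on simulated data. Named genes were all family probe sets, Hnf4a, the 4 of smallest p in a pathway, epithelial, colonocyte or erythroid list, and the 5 nearest patterns. Members, lists and rule were chosen with earlier results of these data known, and motifs with the promoter sequences in view. As alternatives, the quantile step was dropped or replaced by centring on medians, the pseudocount was 1 or 64, probe sets with a mean below the overall median were removed, the variance followed intensity (plain or robust), arrays were weighted, or each array was left out in turn. For lists, all probe sets of a gene were also averaged.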

Additional observations from a re-analysis of the deposited data

How the results depend on the processing

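The count of carbonic anhydrase probe sets past the threshold was 0 in all 13 alternatives. At an unadjusted p under 0.05 it was 2 or 3, except 1 without null_60 and 1 without CONTROL_421 (leaving out 1 array, 1 to 2). The median over members was -0.17 with dim probe sets dropped, which kept 6 of the 14, and -0.13 to 0.09 with 1 array left out. Over all probe sets, the 28 calls became 14 when the pseudocount was 1, 17 when dim probe sets were dropped and 45 under array weights. They ranged from 8 (without null_60) to 104 (without CONTROL_406) with 1 array left out, 18 without CONTROL_421. A lone control array was given the spread of the null group. Small differences changed sign, and the cause was not tested. As deposited, Car3 1449434_at was at 0.0083, Car11 at 0.045 and Car15 at 0.044. With array weights, Car3 1460256_at was at 0.11, Car13 1421308_at at -0.00051, Car5b at -0.051 and Car15 at 0.065. With 1 array left out, the ranges were -0.17 to 0.0024 for Car3 1449434_at, -0.16 to 0.12 for Car3 1460256_at, -0.73 to 0.19 for Car4 1448949_at, -0.15 to 0.40 for Car9, -0.013 to 0.19 for Car12, -0.45 to 0.055 for Car13 1421307_at, -0.11 to 0.16 for Car13 1421308_at, -0.15 to 0.12 for Car5b, -0.23 to 0.076 for Car11, -0.14 to 0.12 for Car15, -0.026 to 0.22 for Ptprg, -0.11 to 0.17 for Ptprz1 1418690_at, -0.20 to 0.47 for Hnf4a 1421983_s_at, -0.78 to 0.072 for Slc26a3, -0.050 to 0.63 for Hbb-y and -0.037 to 0.41 for Hbb-bh1. Averaging all probe sets per gene moved no list's median beyond its spread between arrays. No paired analysis was possible because the groups share no embryo number. Dim members such as Car6 and Car10 are limited by their signal, for which no background measure was used here.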
